A study of Mus musculus with 2 samples.

Results

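The trophoblast gatekeeper genes examined here were Elf5, Cdx2, Eomes, Tfap2c, Tead4, Hand1 and Plet1, 7 protein-coding genes of 21938 in the GENCODE M21 annotation of the mouse genome (GRCm38). They were named one by one and not chosen by a measured value, although earlier results of these data were known when they were chosen. Every CpG from 5 kb upstream of the annotated start to the annotated end of each gene was taken. These regions held 853 of the 1782730 CpG cytosines in the deposited table. At 6 of the 7 genes there was at least 1 measured cytosine, and at Plet1 there was none.

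Methylation was measured by reduced representation bisulfite sequencing (RRBS), which reads DNA methylation at CpGs close to the cutting sites of a restriction enzyme. The cells were Xmas mESCs, female mouse embryonic stem cells of the C57/Bl6 strain that carry an mCherry reporter on one X chromosome and a GFP reporter on the other, both driven by the Hprt promoter. They were derived from blastocysts, grown in 2i/LIF by the modified culture method of the study for 7 passages according to the labels, and then sorted by flow cytometry on the reporters into an XX population and an XO population that had lost an X chromosome. Both populations therefore shared the strain, the medium and the culture, and differed in the reporters on which they were sorted. From each, 1 library was made. With 1 library per karyotype there is no replicate error to hold a difference against, no test was possible, and each difference below compares these libraries only. The read depth behind each value is unknown, and the identity of the cells could not be checked against marker expression because only methylation was measured.

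The trophoblast is the outer lineage of the blastocyst that forms the placenta, and the inner cell mass from which mESCs are derived does not normally contribute to it. Tead4, a DNA-binding partner of the Hippo pathway effector Yap1, acts at the top of the trophoblast programme. The transcription factors Cdx2, Eomes, Tfap2c and Elf5 then maintain trophoblast stem cells, and Elf5 reinforces Cdx2 and Eomes. The Elf5 promoter is known as a lineage barrier because it is methylated in embryonic cells and unmethylated in trophoblast stem cells. Hand1 drives differentiation into trophoblast giant cells, and Plet1 is a surface protein of trophoblast progenitors.

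Across the 853 cytosines the mean methylation level was 10.5% ± 16.4 (SD over cytosines) in XX and 13.96% ± 21.6 in XO, where the whole table averaged 17.6% and 25.8%. The genes differed from each other in level. In XO, most stretches of Elf5 and of the distal bodies of Tead4 and Tfap2c averaged more than 30%, and all of those were lower in XX. Over all protein-coding genes, 93.6% of measured gene bodies, each taken as a mean, were lower in XX. The starts of Tead4, Cdx2, Eomes, Tfap2c and Hand1 were mostly unmethylated, with means between 3.36% and 12.2% in XX and between 5.59% and 12.2% in XO. Within this low background several short runs of CpGs differed by more than 20 points, in both directions. A value is given below for the C of a CpG on one strand, since the table lists the strands separately, and a difference is XX minus XO in percentage points.

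Elf5, an ETS-family transcription factor, lies on the forward strand of chromosome 2 and its gene start is annotated at position 103411688. None of the 22 CpGs within 1 kb of this start was listed, so the promoter at the gene start could not be read in either library. This window has 2 CCGG sites, the sequence cut by MspI, and an observed-to-expected CpG ratio of 0.164. The nearest listed CpG upstream was 13.2 kb away with 28.6% in XX and 100% in XO, and the nearest downstream was 9.32 kb away with 70.6% in XX and 88.2% in XO. A second cluster of protein-coding starts lies within the gene, beginning 12374 bp downstream with transcript Elf5-201 at position 103424062. The window 1 kb either side of it holds 45 CpGs and 9 CCGG sites, and listed CpGs lay on both sides of the start. It was picked for description after its coverage and values had been seen.

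The sequences around the Elf5-201 start and in the intron before it are shown because they hold 10 of the 11 listed cytosines of that window and 11 of the 12 of the intronic stretch before it, with the CpGs measured on at least one strand in capitals. The first is the 250 bp before the Elf5-201 start (chr2:103423812-103424061, forward strand), in which 2 of 8 CpGs were measured. The second is 195 bp of the intron after that start (chr2:103424324-103424518), with 6 of 7 CpGs measured. The last is 129 bp of the intron upstream of it (chr2:103421076-103421204), with all 9 CpGs measured.
Elf5 before the Elf5-201 start: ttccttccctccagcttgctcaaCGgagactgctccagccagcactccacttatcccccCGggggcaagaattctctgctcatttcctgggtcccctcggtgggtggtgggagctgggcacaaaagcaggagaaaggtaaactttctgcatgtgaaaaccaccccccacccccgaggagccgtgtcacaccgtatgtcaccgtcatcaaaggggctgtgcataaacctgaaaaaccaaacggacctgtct
Elf5 after the Elf5-201 start: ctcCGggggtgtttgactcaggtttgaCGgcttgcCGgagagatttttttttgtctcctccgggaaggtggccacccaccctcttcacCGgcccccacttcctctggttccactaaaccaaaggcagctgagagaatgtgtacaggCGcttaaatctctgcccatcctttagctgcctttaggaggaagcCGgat
Elf5 intron: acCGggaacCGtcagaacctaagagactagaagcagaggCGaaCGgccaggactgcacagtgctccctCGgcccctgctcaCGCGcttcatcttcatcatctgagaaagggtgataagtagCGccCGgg

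Over the 11 cytosines within 1 kb of the Elf5-201 start, methylation averaged 10.5% ± 14.6 in XX and 24.4% ± 25.3 in XO (SD over cytosines), a difference of -13.95 points. Upstream of this start, the cytosine at -411 bp was at 50% in XX and 90.9% in XO. In the first sequence above, the CpG 12148 bp from the gene start was at 20% in XX and 27.8% in XO, and the CpG 12184 bp from it was at 5% in XX and 44.4% in XO. Each of the 3 upstream positions was thus lower in XX, by very different amounts. Downstream of the start, the 8 cytosines between 12639 and 12827 bp from the gene start ranged from 0 to 14.8% in XX and from 0 to 27.1% in XO. Their means of 5.05% and 13.2% were the lowest of the 4 separate stretches of Elf5 CpGs, where a stretch is a set of listed CpGs with gaps of at most 200 bp.

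The other Elf5 stretches were more methylated. Between 9320 and 9514 bp after the gene start, 12 intronic cytosines averaged 22.5% in XX and 41.1% in XO, a difference of -18.6 points. Near the 3′ end, 12 cytosines between 37776 and 37981 bp averaged 34.0% in XX and 52.2% in XO. This last stretch holds all 10 coding-sequence cytosines of Elf5, which lie in 2 fragments between CCGG sites. Each of them was lower in XX, with means of 31.0% in XX and 53.5% in XO. Of all listed cytosines, 53.5% were lower in XX and 26.4% higher. Of all measured gene bodies, each taken as a mean, 93.6% were lower in XX. Over the whole gene body the mean of 35 cytosines was 22.7% ± 19.5 in XX and 39.7% ± 22.5 in XO, 30 being lower in XX and 5 higher. Of the 35, 15 (42.9%) were at least 20 points lower in XX and 0 at least 20 points higher, where 22.5% of all listed cytosines were lower and 3.68% higher by that margin. These shares are not at like levels, since the XO median was 40.9% over the 35 and 12.5% over all listed cytosines. Of all measured gene bodies, 38.3% had a larger XX deficit than Elf5. Elf5 was the only member in which more than 1 in 5 cytosines were lower in XX by that margin, and it also had the smallest number of measured cytosines among the 6 genes with data.

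**Figure D1:**
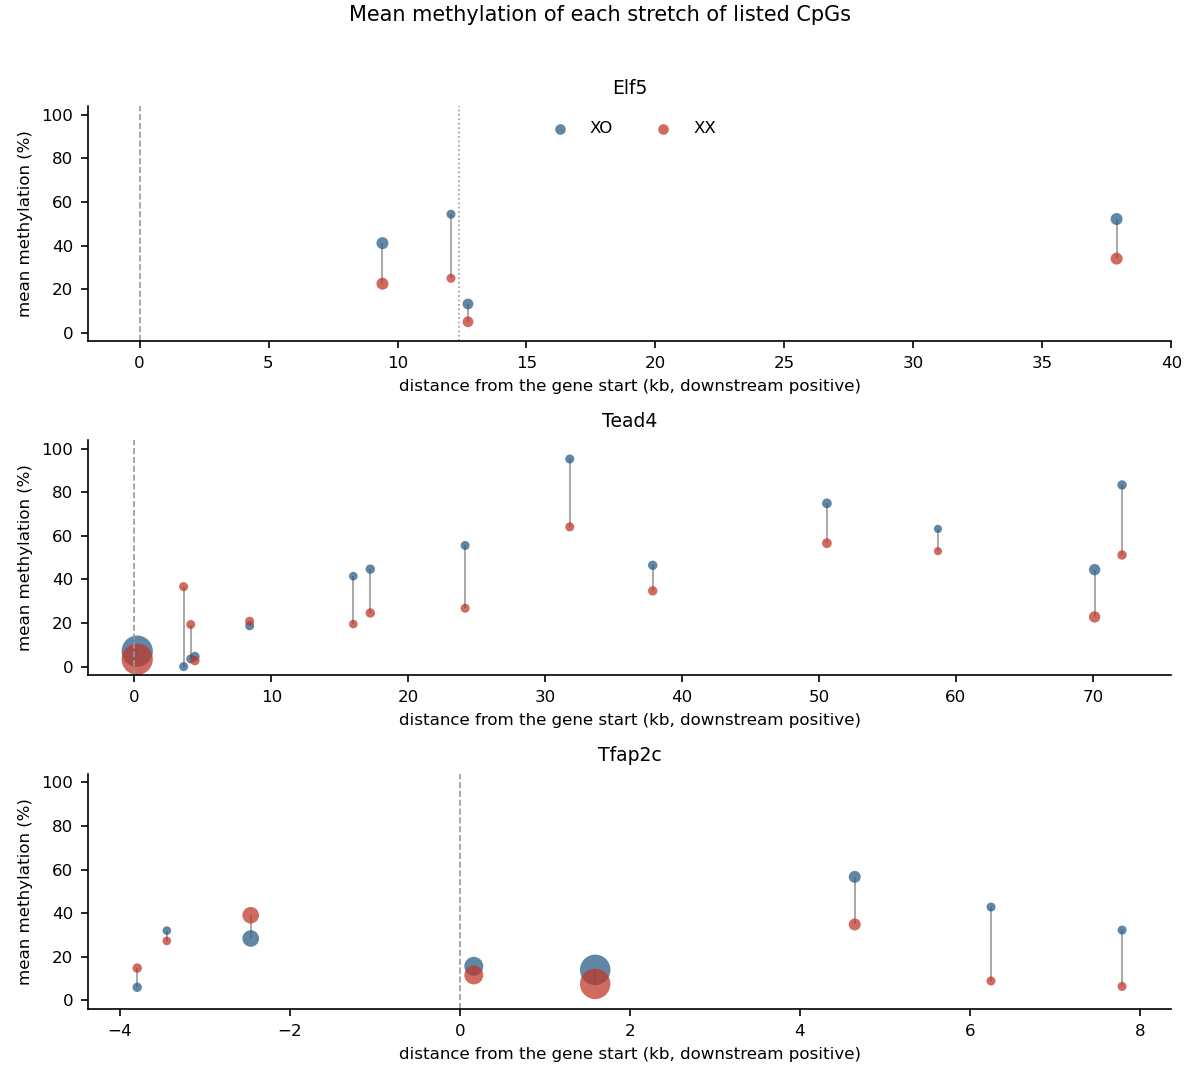
Mean methylation (%) of each stretch of listed CpGs in XX (red) and XO (blue) against distance from the gene start (kb) at Elf5, Tead4 and Tfap2c, with point area growing with the number of cytosines, a dashed line at the gene start and a dotted line at the Elf5-201 start. At Elf5 all 4 stretches were lower in XX, whereas Tead4 and Tfap2c had stretches with higher XX values within 5 kb of their starts and lower XX values in most stretches further downstream. Over all protein-coding genes, 93.6% of measured gene bodies, each taken as a mean, were lower in XX. The share of single stretches was not calculated.

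Cdx2, a caudal-type homeobox factor and an early marker of the trophectoderm, lies on the reverse strand of chromosome 5 with its start at position 147307270. Within 1 kb of the start 90 cytosines were measured, all downstream of it, with a mean of 12.2% ± 15.0 in XX and 11.4% ± 19.2 in XO. The near-equal means came from runs that differed in opposite directions, since 9 cytosines were at least 20 points lower in XX and 9 at least 20 points higher. On the antisense strand, 8 cytosines between +769 and +838 bp averaged 26.9% in XX and 0.417% in XO, across the end of exon 1 and the beginning of intron 1. Also on the antisense strand, 8 cytosines between +489 and +534 bp averaged 5.45% in XX and 31.7% in XO. In the first run the cytosines ranged from 23.5% to 29.4% in XX and from 0 to 3.33% in XO. In the second they ranged from 0 to 10.3% in XX and from 20% to 40% in XO. The cytosines of each run share a fragment between CCGG sites and a strand, so they are not independent measurements. The share of such runs over the whole genome was not calculated.

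The first of these runs is shown because Cdx2 was higher in XX there while the partner strand was not. It is chr5:147306430-147306503 on the reverse strand, with all 8 CpGs measured and in capitals.
Cdx2 exon 1 and intron 1: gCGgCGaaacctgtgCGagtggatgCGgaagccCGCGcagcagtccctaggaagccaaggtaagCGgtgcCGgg

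On the sense strand, 9 cytosines between +725 and +782 bp, in the same fragment between CCGG sites, averaged 9.13% in XX and 18.6% in XO. The opposite strands of this part of Cdx2 therefore gave opposite directions. Another feature of the Cdx2 start was mostly methylated in both libraries, with 45.2% in XX and 51.7% in XO over 6 antisense cytosines between +282 and +351 bp. On the sense strand, 4 cytosines between +157 and +350 bp averaged 44.2% and 37.5%. Of these, the one at +350 bp was at 0 in both libraries and the one at +157 bp at 53.8% in XX and 10% in XO. The measured cytosine nearest the start, at +131 bp, had 33.3% in XX and 70% in XO. Beyond the start window, 45 intronic cytosines between 1542 and 2283 bp averaged 2.75% in XX and 3.87% in XO. At the far end of the gene, 5 cytosines between 5118 and 5302 bp averaged 41.9% in XX and 28.4% in XO, a difference of 13.5 points. Over the whole gene body outside the start window the 50 cytosines of Cdx2 averaged 6.67% ± 13.0 in XX and 6.33% ± 10.99 in XO.

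Eomes, a T-box factor of trophoblast stem cells and of the early mesendoderm, lies on the forward strand of chromosome 9 with its start at position 118478212. The 124 cytosines of its start window averaged 5.40% ± 8.64 in XX and 6.75% ± 11.6 in XO. The exons were mostly unmethylated over a long interval, with 156 cytosines between +201 and +1274 bp at 3.91% in XX and 2.87% in XO. Upstream of the start the values were higher and the libraries differed more. The 13 cytosines between -477 and -287 bp averaged 13.4% in XX and 26.6% in XO, a difference of -13.2 points. Among them, 4 sense cytosines between -430 and -381 bp were at 0 in XX and between 5.41% and 27.0% in XO.

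That upstream stretch of Eomes is shown because it is the part of the start window where XX and XO separated. It is chr9:118477734-118477927 on the forward strand, with all 12 CpGs measured and in capitals.
Eomes upstream: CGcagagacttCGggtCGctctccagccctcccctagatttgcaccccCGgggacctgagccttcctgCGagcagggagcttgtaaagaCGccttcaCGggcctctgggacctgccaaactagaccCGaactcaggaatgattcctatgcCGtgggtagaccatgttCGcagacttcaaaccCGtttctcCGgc

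In the gene body of Eomes the few measured intronic cytosines stood out from the exons. The 6 intronic cytosines averaged 16.5% in XX and 31.6% in XO, and 4 of them were at least 20 points lower in XX and 1 at least 20 points higher. All others lay in coding exons, and the whole body of 59 cytosines averaged 3.87% ± 6.16 in XX and 3.30% ± 11.4 in XO. An antisense transcript, Gm33460, overlaps the 3′ end of Eomes.

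Tfap2c, which encodes the transcription factor AP-2γ, lies on the forward strand of chromosome 2 with its start at position 172549593. Its 60 start-window cytosines averaged 9.26% ± 18.1 in XX and 12.2% ± 23.0 in XO. Most of this window was below 20% in both libraries, and the exception was a run of 8 sense cytosines in intron 1 between +320 and +385 bp with 52.9% in XX and 65.6% in XO. Upstream, 4 cytosines between -3845 and -3751 bp averaged 14.8% in XX and 6% in XO. The larger upstream stretch between -2805 and -2120 bp held methylated CpGs in both libraries, with 39.1% ± 27.2 in XX and 28.4% ± 27.7 in XO over 31 cytosines. Over the full interval from 5 to 1 kb upstream the 37 cytosines averaged 35.8% in XX and 26.2% in XO, a difference of 9.63 points. Of the 37, 12 were at least 20 points higher in XX and 0 at least 20 points lower.

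Over the whole upstream interval this excess in XX lay on the sense strand. The 25 sense cytosines averaged 41.4% in XX and 26.6% in XO, while the 12 antisense cytosines averaged 24.2% and 25.3%. Most of it came from 8 sense cytosines between -2391 and -2332 bp, at 58.1% in XX and 20.4% in XO. In the smaller stretch between -3764 and -3751 bp the excess was instead on the antisense strand, with 2 cytosines at 19.8% in XX and 5.71% in XO and 1 at 19.6% and 8.57%. The single antisense cytosine measured in the sense run above, at -2390 bp, had the opposite order, with 46.7% in XX and 58.3% in XO.

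Inside Tfap2c the order turned, with 71 body cytosines lower in XX and 34 higher. Just after the start window, 5 sense cytosines of the intron between +1009 and +1041 bp averaged 19.6% in XX and were all at 58.8% in XO. The antisense strand did not share this order. There, 4 cytosines between +1010 and +1137 bp averaged 20.7% in XX and 17.2% in XO, and 1 at +1189 bp had 43.5% and 25%. A further 7 sense cytosines between +1311 and +1364 bp, annotated as untranslated exon, averaged 43.7% in XX and 90.1% in XO. Their neighbours on the antisense strand between +1244 and +1296 bp averaged 1.39% in XX and 16.1% in XO. The coding cytosines between +1869 and +2240 bp were mostly low in both libraries, apart from 6 sense cytosines between +1912 and +1981 bp with 6.41% in XX and 23.5% in XO. From 4 kb after the start to the end of Tfap2c, 18 cytosines averaged 25.8% in XX and 50.3% in XO, a difference of -24.5 points. That distal interval consisted of stretches at 4470 to 4820 bp with 34.8% and 56.7%, at 6195 to 6302 bp with 8.90% and 42.8%, and at 7734 to 7847 bp with 6.40% and 32.3%, XX being given first. The whole body outside the start window averaged 10.8% ± 14.9 in XX and 20.6% ± 26.5 in XO over 126 cytosines.

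The upstream run and the intronic run of Tfap2c are shown because their sense strands differed in opposite directions within the same gene. The upstream sequence is chr2:172547200-172547263 with 8 CpGs and the intronic one is chr2:172550600-172550636 with 5 CpGs, both on the forward strand with the measured CpGs in capitals.
Tfap2c upstream: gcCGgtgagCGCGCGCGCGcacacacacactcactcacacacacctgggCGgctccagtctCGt
Tfap2c intron: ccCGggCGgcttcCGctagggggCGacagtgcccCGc

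Tead4 lies on the reverse strand of chromosome 6 with its start at position 128300823 and spans 76.5 kb. Its start window held 132 cytosines with a mean of 3.36% ± 8.68 in XX and 7.07% ± 7.93 in XO. The part closest to the start differed in the same direction on both strands. All 14 cytosines upstream of the start were at 0 in XX, and in XO they averaged 16.2% and ranged from 1.92% to 20.8%. Across the start itself, between -40 and +29 bp, 8 antisense cytosines averaged 0.240% in XX and 16.6% in XO. Further downstream, between +292 and +335 bp, 7 sense cytosines were at 0 in XX and averaged 21.4% in XO. The opposite order appeared at low levels between +199 and +274 bp, where for example 7 sense cytosines averaged 5.70% in XX and 0.621% in XO, and at 13 antisense cytosines between +421 and +489 bp with 3.38% and 0.810%. It was largest at 4 sense cytosines between +601 and +641 bp, with 43.8% in XX and 13.5% in XO.

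Along the body of Tead4 the order of the libraries turned. At 3518 to 3666 bp, 3 intronic cytosines averaged 36.7% in XX and were at 0 in XO, 2 antisense cytosines being at 45% and 65% in XX and the sense one at 0. At 4053 to 4173 bp, 3 cytosines averaged 19.3% in XX and 3.51% in XO. From 5 kb after the start to the end of the gene XX was lower, with 39 cytosines at 35.4% in XX and 55.7% in XO, a difference of -20.3 points. The stretch at 8338 to 8489 bp was an exception, with 3 cytosines at 20.8% in XX and 18.7% in XO. Of the 9 coding stretches and intronic stretches further than 10 kb from the start, each was lower in XX. Of all measured gene bodies, each taken as a mean, 93.6% were lower, and the share of single stretches over all genes was not calculated. The highest was that of 3 cytosines at 31767 to 31820 bp with 64.1% in XX and 95.2% in XO. The 13 coding-sequence cytosines of Tead4, all near the 3′ end, averaged 31.2% in XX and 56.5% in XO. Over the whole body outside the start window the 49 cytosines averaged 31.8% ± 21.8 in XX and 44.9% ± 31.3 in XO. An internal start of transcript Tead4-203, 25246 bp into the gene, had no listed CpG within 1 kb.

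The intronic run in which Tead4 was methylated in XX and unmethylated in XO is shown with its 2 measured CpGs in capitals. It is chr6:128297153-128297206 on the reverse strand.
Tead4 intron: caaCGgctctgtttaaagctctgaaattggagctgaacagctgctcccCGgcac

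Hand1, a basic helix-loop-helix factor, lies on the reverse strand of chromosome 11 with its start at position 57832818. None of its 88 cytosines reached 50% in either library. The 43 cytosines of the start window averaged 4.31% ± 4.75 in XX and 5.59% ± 7.05 in XO, and the 42 of the gene body averaged 5.98% ± 6.59 and 6.84% ± 9.30. The 25 cytosines directly around the start, between -111 and +80 bp, averaged 2.63% in XX and 5.95% in XO. Only 3 cytosines of Hand1 were at least 20 points lower in XX, and 0 were at least 20 points higher. Upstream of the window 3 cytosines averaged 28.6% in XX and 25.7% in XO. In the start window the spread over cytosines of Hand1 was the smallest among the 5 genes measured there, in both libraries.

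**Figure D2:**
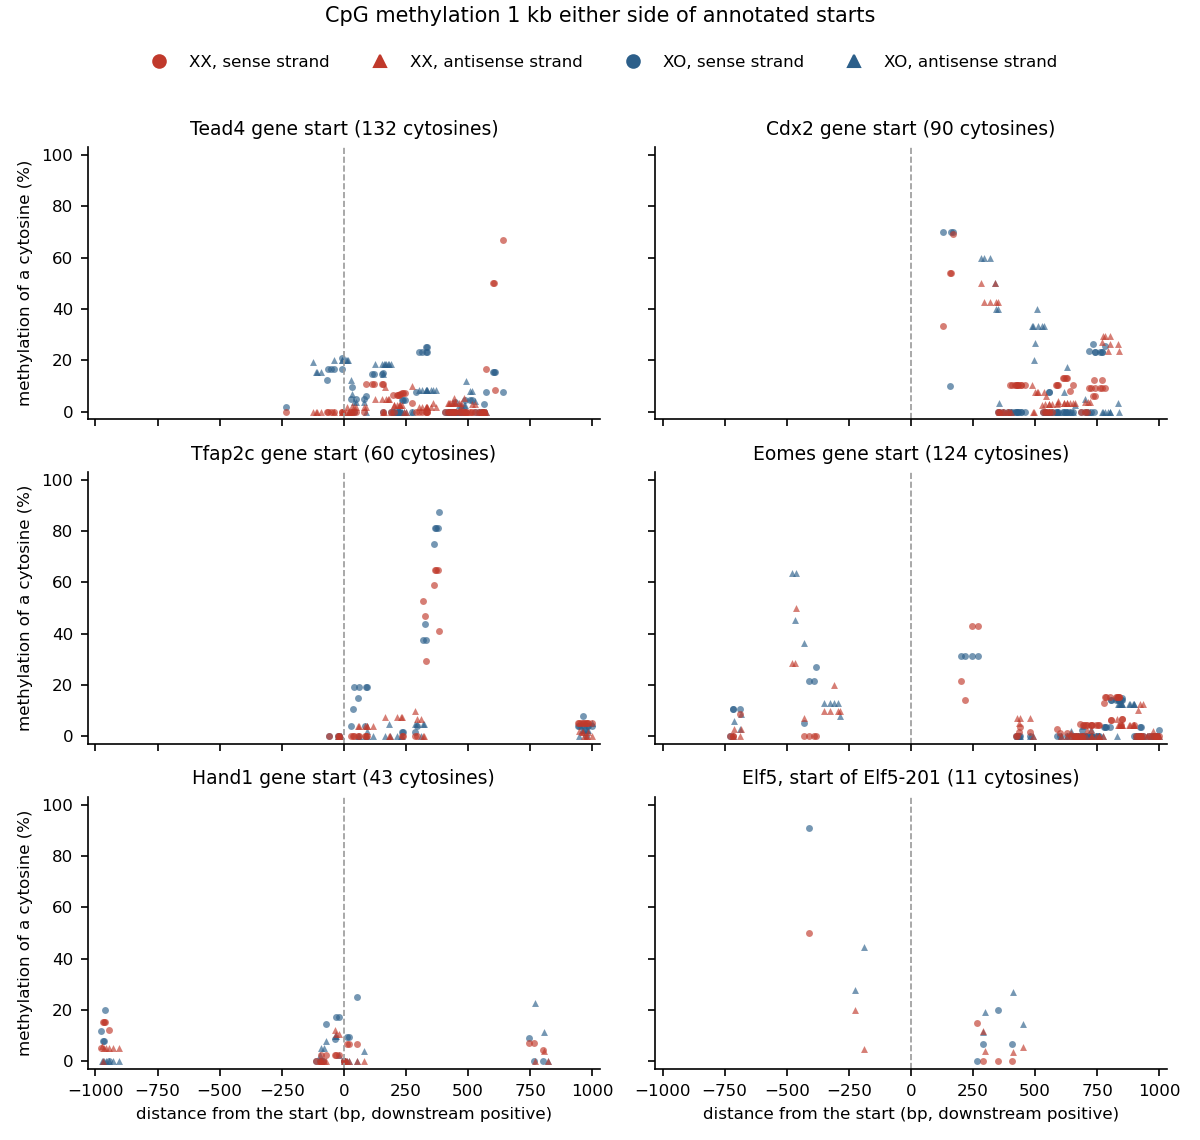
Methylation level (%) of every listed CpG cytosine within 1 kb of the annotated start of Tead4, Cdx2, Tfap2c, Eomes and Hand1 and of the internal Elf5-201 start, against distance from the start (bp), for XX (red) and XO (blue), with circles for the sense and triangles for the antisense strand. Most values lay below 20% in both libraries, and the exceptions formed short runs, such as most Cdx2 cytosines between +131 and +351 bp and the Tfap2c sense cytosines between +320 and +385 bp.

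Plet1, at chromosome 9 from 50494525 to 50505482 on the forward strand, had no listed CpG. The 199 CpGs from 5 kb upstream to its end come with 7 CCGG sites, and no 2 neighbouring sites lie close enough to give a fragment of 40 to 300 bp, the shortest fragment being 318 bp. The nearest listed CpG upstream was 7.77 kb away, with 28% in XX and 61.5% in XO, and the nearest downstream was 19.1 kb from the start, with 29.4% in XX and 53.2% in XO. Both lie outside the gene, so the Plet1 values of these cells are not analysed here. An antisense transcript, Plet1os, overlaps the gene. The 250 bp before the Plet1 start (chr9:50494275-50494524) are shown because the promoter itself was not read, and they hold 3 CpGs and 0 CCGG sites. No base is in capitals because no CpG was measured.
Plet1 before its start: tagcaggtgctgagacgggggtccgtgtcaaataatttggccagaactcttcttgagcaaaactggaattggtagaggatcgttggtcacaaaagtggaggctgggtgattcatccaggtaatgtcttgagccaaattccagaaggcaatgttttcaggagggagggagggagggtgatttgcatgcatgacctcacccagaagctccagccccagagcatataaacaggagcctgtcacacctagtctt

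Missing starts were common among promoters with few CCGG sites. Of all protein-coding start windows 67.6% had a listed CpG, from 0.233% of those without a CCGG site and 2.18% of those with 1 site to 57.8% with 2 to 4 sites and 99.6% with 10 or more. Elf5 and Plet1 have 2 and 3 sites in their windows, a class in which 1752 of 4156 windows had no listed CpG, while the 5 measured members have between 7 and 16. Nearly all listed cytosines (99.98%) lay within 100 bp of a CCGG site, against 26.3% of all CpGs of the reference genome. No listed CpG at all was found for 3460 genes (15.8%) from 5 kb upstream to their end.

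Against all genes, the gatekeeper starts had methylation levels of the usual size. Over the 14139 protein-coding start windows with at least 3 listed CpGs, XX had a median of 7.55% and XO of 8.92%, with a median difference of -1.38 points. The 5 measured members had medians of 5.40% and 7.07%, and a median difference of -1.35 points. A difference of at least 20 points was found in 0 of the 5 in either direction, against 4.9% of all start windows lower in XX and 0.389% higher in XX. The XO means of the 5 lay between 5.59% and 12.2%, so none of them could have been 20 points lower in XX. The member values ran from -3.70 points at Tead4 to 0.804 points at Cdx2, and 30.5% of all start windows had a larger XX deficit than Tead4.

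Gene bodies separated the members further. Over 14288 protein-coding genes the median body was methylated to 26.9% in XX and to 43.4% in XO, with a median difference of -14.02 points. Elf5 and Tead4 were near these medians, and 38.3% of all bodies had a larger XX deficit than Elf5. Cdx2, Hand1 and Eomes lay at the bottom of the distribution, with only 2.48%, 2.81% and 0.882% of all bodies having a lower XO level. Differences of at least 20 points were found in 0 of 6 member bodies, where 27.1% of all bodies were lower by that margin in XX and 0.245% were higher. The XO means of Cdx2 (6.33%), Eomes (3.30%) and Hand1 (6.84%) were too low for a fall of 20 points. That of Tfap2c, at 20.6%, barely allowed one. Relative to XO, the XX level was 0.572 of it at Elf5, 0.708 at Tead4 and 0.522 at Tfap2c, where the median ratio over the 13492 bodies with at least 10% in XO was 0.653.

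**Figure D3:**
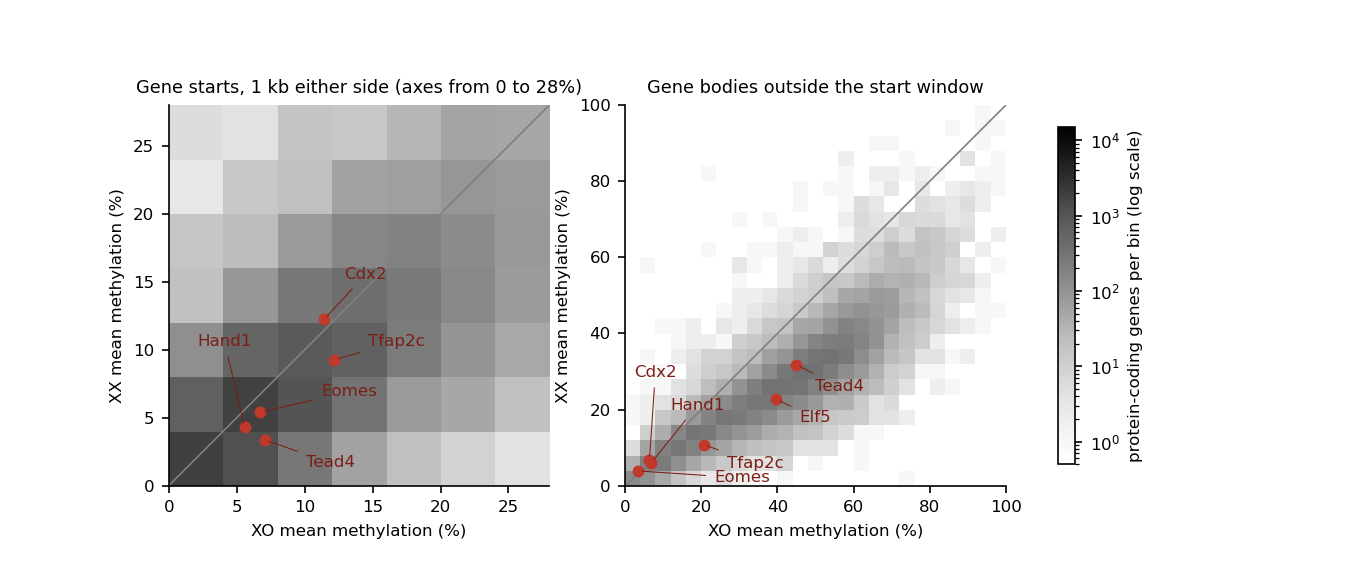
XX against XO mean methylation (%) of all protein-coding genes with at least 3 listed CpGs, in grey on a log colour scale, with the member genes as red points, for start windows (left, axes from 0 to 28%) and gene bodies (right, axes from 0 to 100%), and a grey line where both are equal. In the right panel Elf5, Tead4 and Tfap2c lie below the line among other genes, while Cdx2, Hand1 and Eomes sit in the low corner.

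The internal start of Elf5 was compared with other starts of its kind. Over 5472 starts of protein-coding transcripts more than 2 kb from the gene start, the medians were 11.3% in XX and 15.1% in XO, and the median difference was -3.47 points. The Elf5-201 window, at -13.95 points, did not reach the margin of 20 points that 14.8% of these starts reached with XX lower and 0.969% with XX higher. The stretch upstream of Tfap2c was less usual. Only 2.68% of 5794 measured stretches from 5 to 1 kb upstream of protein-coding genes had a larger excess in XX, and their median difference was -10.8 points. At least 20 points lower in XX were 28.1% of these stretches and 0.57% were at least 20 points higher, and neither margin was reached by Tfap2c, Cdx2 or Hand1.

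Single cytosines gave the same picture in counts. Of the 853 member cytosines, 97 (11.4%) were at least 20 points lower in XX, against 22.5% of all listed cytosines, and 30 (3.52%) were at least 20 points higher, against 3.68%. The members also held fewer methylated cytosines in XO, with 79 (9.26%) at 50% or more where the whole table had 23.8%. By gene the lower count was 32 of 181 at Tead4, 28 of 223 at Tfap2c, 15 of 35 at Elf5, 10 of 143 at Cdx2, 9 of 183 at Eomes and 3 of 88 at Hand1. The 30 higher cytosines were spread over Tfap2c with 12, Cdx2 with 10, Tead4 with 7 and Eomes with 1. By region, the lower cytosines were 28 of 449 in start windows, 1 of 43 in upstream stretches and 68 of 361 in gene bodies. The higher ones were 12 of 449, 12 of 43 and 6 of 361, and all 12 upstream ones were at Tfap2c. Shares by region over all listed cytosines were not calculated.

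Neighbouring cytosines are not independent measurements, because a read covers several of them. Among member cytosines with a listed neighbour in the same fragment and strand and a value above 0, 164 of 472 (34.7%) had exactly the same pair of values as that neighbour, compared with 25.7% over the whole table. The 853 cytosines formed 236 runs in 158 fragments. Where both strands of a CpG were listed, at 253 member CpGs, the median gap between strands was 3.51 points in XX and 1.91 points in XO. A gap of at least 30 points in either library was seen at 10 of them (3.95%), against 8.45% of all such CpGs. Of these 10, 4 were among 52 such CpGs at Tfap2c (7.69%) and 3 among 42 at Cdx2 (7.14%), both shares below that of all such CpGs. Tead4, Eomes and Elf5 had 1 each, among 61, 64 and 8. Most member cytosines were near 0, where a gap of 30 points is seldom possible, so these shares do not measure agreement between strands. XX minus XO had the same sign on both strands at 76 of the 253 member CpGs, against 136664 of all 426739 such CpGs. A difference of 0 on either strand was not counted as the same sign.

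**Figure D4:**
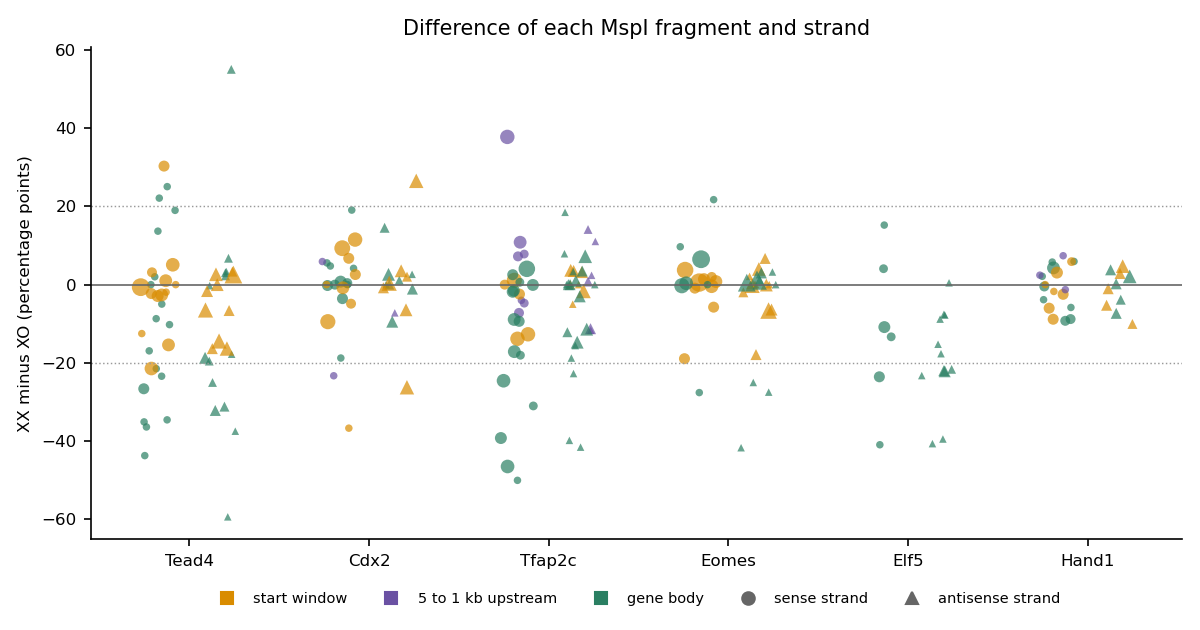
Difference XX minus XO (percentage points) of each run of cytosines in the same MspI fragment and strand, by gene and part of the gene (colour), with circles for the sense and triangles for the antisense strand, point area growing with the number of cytosines and dotted lines at 20 points. At Elf5 8 of 18 runs were at least 20 points lower in XX and 0 higher, and the 29 runs of Hand1 stay within the dotted lines. Beyond them Tead4 has 13 runs below and 4 above of 54, and Tfap2c 8 and 1 of 59. Cdx2 has 3 and 1 of 38, and Eomes 4 and 1 of 38. Many runs hold a single cytosine, and the share over all runs of the genome was not calculated.

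Related genes were described by lists, some of which share members. Of 16 regulators of trophoblast stem cells other than the members, 1 start window was at least 20 points lower in XX and 0 higher, near the 4.9% and 0.389% of all start windows, and the list had medians of 10.4% in XX and 14.9% in XO with a median difference of -1.20 points. That gene was Bmp4, a signalling ligand, with 5.97% in XX and 26.7% in XO over 11 cytosines. Gata3, a GATA factor of the trophectoderm, followed with 12.4% and 25.5%, and the homeobox gene Msx2 had the opposite order with 14.9% and 8.13%. Of the 15 measured genes among 18 of the Hippo pathway and the Tead family, 0 reached 20 points in either direction, beside the same 4.9% and 0.389%, and the median difference was -1.91 points. The furthest apart were the Tead4 paralogue Tead1 with 18.1% and 27.1%, the angiomotin gene Amotl2 with 40.2% and 33.7%, and the kinase adaptor Sav1 with 2.23% and 7.11%.

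Genes of differentiated trophoblast were measured less often. Of 18, 9 had no listed CpG in the start window, among them the placental prolactins and the syncytin gene Synb. Of the other 9, 2 were at least 20 points lower in XX and 0 higher, beside 4.9% and 0.389% of all start windows, and the list medians were 19.7% in XX and 24.9% in XO. These were Gcm1, a factor of the syncytiotrophoblast, with 19.7% and 45.7% over 4 cytosines, and Pcdh12, a protocadherin of glycogen trophoblast, with 23.9% and 49.2% over 10 cytosines. The protease gene Mmp9 had 6.20% and 20.1% over 4 cytosines. Among the 14 measured of 17 close paralogues of the members, 1 was at least 20 points lower, a share near the 4.9% of all start windows. This was Ehf, an ETS gene related to Elf5, with 24.8% in XX and 50.97% in XO. Cdx4, an X-linked paralogue of Cdx2, had 22.1% and 33.6%, and the list had a median difference of -1.91 points. Ehf lies on the same chromosome as Elf5, whose own gene start could not be read. A lower level in XX was common, at 65.7% of all measured start windows and 93.6% of all measured gene bodies.

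Pluripotency factors served as the embryonic counterpart of the gatekeepers. At the starts of 6 measured genes of 8, 0 reached 20 points, with medians of 7.89% in XX and 8.48% in XO. The highest XO mean among these starts was 19.6%, so none could have been 20 points lower in XX. The largest difference was at Zfp42, the naive marker Rex1, with 8.99% and 19.6%, followed by Pou5f1 with 2.15% and 6.47% and Sox2 with 6.74% and 8.04%. In gene bodies, 2 of 15 measured stem cell regulators, 1 of 15 Hippo genes, 3 of 12 differentiated trophoblast genes, 1 of 15 paralogues and 0 of 6 pluripotency factors were at least 20 points lower in XX, all at shares below the 27.1% of all genes. The median start level of the 5 measured gatekeepers was 5.40% in XX and 7.07% in XO, beside 7.89% and 8.48% for the pluripotency factors.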

How the data were processed

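The deposited table gives, per the labels of its columns, the percent of methylated reads at each listed CpG cytosine in the XX and the XO library, 1 value each, and it held 0 other columns of sample values. The authors prepared RRBS libraries with a NuGEN Ovation kit, and the submitters' processing notes name bcl2fastq, Bismark and the build mm10 without roles or versions. The enzyme, the coverage minimum and the read counts are not given in the sources used here, so depth and counting error are unknown. A percent is an average over the cells and alleles of a library, bisulfite reads do not separate methylcytosine from hydroxymethylcytosine, and RRBS covers only part of the CpGs. The labels give 7 passages and the methods of the study a different number.

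Positions were matched to GRCm38.p6, the same build as mm10, and 51 of all listed cytosines, 0 of them in member regions, did not lie on a CpG. Means were taken over cytosines in the window 1 kb either side of the gene start, in the rest of the gene body and from 5 to 1 kb upstream, with at least 3 listed CpGs for comparisons over all genes. A margin of 20 points was used for counts. Fragments were cut in the reference at CCGG. All 7 members were named, and from each gene list the up to 3 genes with the largest start-window difference. The rule's search for starts most like that of Elf5 was left out because the Elf5 gene start had no listed CpG. The members and lists were chosen with earlier results of these data known. No test was run. The scripts were tested on simulated data and used Python 3.11.15, numpy 2.4.6, pandas 2.3.3 and matplotlib 3.10.9. Other windows, thresholds, strands, medians, fragment weights and CpG minimums were tried as alternatives.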

Additional observations from a re-analysis of the deposited data

How the results depend on the processing

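Of 147 recalculated differences, 137 stayed within 5 points of the value reported and 0 changed sign among differences of 10 points or more. The margin of 5 points was larger than every gene-start difference of the members, so staying within it says little about those. Some alternatives, such as 2 kb either side at Tead4, also kept the same cytosines. In 13 cases a difference below 10 points took the other sign, all at Cdx2, Tfap2c, Eomes or Hand1. The differences that moved by more than 5 points were the Tead4 body (-5.41 over the whole gene, -20.3 from 5 kb), the Cdx2 start as a median over CpGs (8.49), the Tfap2c body (-4.58 on the reverse strand, -24.5 from 4 kb), the Tfap2c upstream stretch (14.8 on the forward strand, -1.06 on the reverse strand, 20 as a median), the Eomes body with each fragment weighted once (-5.76) and the median of differentiated trophoblast genes with 2 kb either side (-11.35). The windows from 4 and 5 kb and around Elf5-201 were chosen after seeing the data. Shares depended on the margin. At 10 and 30 points, 24.0% and 5.16% of member cytosines were lower in XX and 9.50% and 1.64% higher. Over all single CpGs 34.7% and 13.6% were lower and 9.13% and 1.57% higher. For all start windows 11.9% and 1.73% were lower and 2.04% and 0.0990% higher, and for all bodies 65.01% and 5.87% lower and 0.791% and 0.0490% higher. With at least 10 CpGs, 1.39% of start windows were lower and 0.154% higher, and 0.0372% of bodies were higher. With all annotated genes 11.5% of start windows were lower. No paired analysis was possible because each karyotype has 1 library, and for the same reason no library could be left out. Without replicates and read depths, none of these values can be set against experimental error, and the cause of each shift was not tested.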
